A study of Mus musculus with 15 samples.

Results

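The mitochondrial fatty acid oxidation enzymes examined here were Cpt1a, Cpt2, Acadvl, Acadl, Acadm, Acads, Hadha, Hadhb, Hadh and Etfdh. They were taken from the tables by gene symbol, and all 10 were present among the 12721 genes that the deposited RNA-seq count tables list for every group. The cells were B16.F10, an established mouse melanoma line, and all 15 libraries came from cultures kept at 1% oxygen. In the Hif1a_siRNA_Dox group (labelled Hif-1α knockdown + Doxorubicin) the cells received lipoplexes of anti Hif-1α siRNA at 25 nM for 24 h, and then doxorubicin at 0.25 µM for another 24 h. The Dox group received doxorubicin alone, at 0.25 µM for 24 h. The Hif1a_siRNA group (labelled Hif-1α knockdown) received the siRNA alone and the NC_siRNA group a negative control siRNA, each at 25 nM for 24 h. The Control group received neither agent. When the siRNA groups without doxorubicin were harvested is not given in the sources used here. Where Hif1a_siRNA_Dox is set against Hif1a_siRNA, a possible gap in time since lipoplex addition cannot be told apart from the drug. Each group had 3 libraries. The labels call the 3 biological replicates and do not say whether they were separate cultures, so the p-values measure the spread between these libraries. No group combined the negative-control siRNA with doxorubicin, so in Hif1a_siRNA_Dox cells the knockdown and the transfection cannot be told apart when they are set against Dox cells.

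Long-chain fatty acids enter the mitochondrion as carnitine esters. Carnitine palmitoyltransferase 1 (Cpt1a is its liver-type isoform) makes the ester at the outer membrane, and Cpt2 returns the acyl group to coenzyme A inside. The acyl-CoA then passes through a repeated cycle. Acyl-CoA dehydrogenases of very long (Acadvl), long (Acadl), medium (Acadm) and short (Acads) chain preference start it, the trifunctional protein built from Hadha and Hadhb completes it for long chains, and Hadh carries out the hydroxyacyl-CoA dehydrogenase step for shorter chains. Electrons from the dehydrogenases pass through the electron transfer flavoprotein to Etfdh, which reduces ubiquinone in the inner membrane. The pathway uses oxygen through the respiratory chain, and HIF-1, the transcription factor whose oxygen-regulated subunit is Hif1a, is known to lower it in hypoxic tumour cells.

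The promoter windows of 4 members are shown because their genes gave the main contrasts. Hadha and Hadhb encode the 2 subunits of 1 enzyme and start head to head, yet their transcripts did not move in parallel, and Acadm and Acadl carry neighbouring chain preferences and moved in opposite directions under doxorubicin. The windows run 5′ to 3′ from 250 bases before to 50 bases after the start site in RefSeq (GRCm38.p6). Hadha lies at chr5:30154931-30155230 on the minus strand, Hadhb at chr5:30155003-30155302 on the plus strand, Acadm at chr3:153944594-153944893 on the minus strand and Acadl at chr1:66863260-66863559 on the minus strand. Capitals mark the motifs searched, on either strand.
Hadha: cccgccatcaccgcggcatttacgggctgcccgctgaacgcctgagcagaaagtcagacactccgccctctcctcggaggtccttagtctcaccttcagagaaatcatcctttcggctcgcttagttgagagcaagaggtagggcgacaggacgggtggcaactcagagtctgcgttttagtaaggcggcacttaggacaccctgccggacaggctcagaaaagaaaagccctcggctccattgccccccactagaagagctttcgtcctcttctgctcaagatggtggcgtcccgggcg
Hadhb: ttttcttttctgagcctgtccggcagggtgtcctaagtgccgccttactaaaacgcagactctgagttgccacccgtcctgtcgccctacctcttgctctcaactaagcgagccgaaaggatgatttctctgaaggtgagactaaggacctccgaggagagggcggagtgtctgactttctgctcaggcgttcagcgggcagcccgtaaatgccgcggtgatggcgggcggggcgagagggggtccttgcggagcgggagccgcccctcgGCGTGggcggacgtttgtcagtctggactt
Acadm: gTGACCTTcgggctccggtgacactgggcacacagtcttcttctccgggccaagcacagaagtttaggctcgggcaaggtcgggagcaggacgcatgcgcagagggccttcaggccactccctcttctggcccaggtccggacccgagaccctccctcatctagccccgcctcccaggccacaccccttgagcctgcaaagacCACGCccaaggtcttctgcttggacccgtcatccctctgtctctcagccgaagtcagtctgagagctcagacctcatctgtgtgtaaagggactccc
Acadl: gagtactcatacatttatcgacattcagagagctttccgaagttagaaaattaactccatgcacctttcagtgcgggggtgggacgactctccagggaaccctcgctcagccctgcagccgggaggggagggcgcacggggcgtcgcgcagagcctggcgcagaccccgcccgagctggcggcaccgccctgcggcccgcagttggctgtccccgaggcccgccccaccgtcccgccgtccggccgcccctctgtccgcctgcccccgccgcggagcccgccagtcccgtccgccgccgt
The RefSeq start sites of Hadha and Hadhb lie 273 bp apart, and their windows share 228 bases that are identical when read from opposite strands. The GENCODE M21 gene bounds given below put the 5′ end of Hadha at 30155162 and that of Hadhb at 30155248. The distance therefore depends on the annotation. The motifs searched on both strands were ACGTG along with GCGTG, the cores bound by HIF dimers, CACGTG, which is the E-box and contains ACGTG, then AAGGTCA, which is a site of estrogen-related receptors, and a direct repeat of AGGTCA with 1 base between the copies. GCGTG was present in 7 of the 10 members' windows, against 32.4% of 32851 mouse promoter windows of the same length. ACGTG was present in 1, that of Acadvl, against 19.6% of all windows. AAGGTCA was present in 1, at position -249 from the start of Acadm, against 4.72% of all windows. CACGTG and the AGGTCA repeat were in none of the 10, against 7.15% and 0.0396% of all windows. The windows of 9 of the 10 members were richer in G and C than the median of all windows, 52.7%, with 70.3% in Acadl and 50.7% in Acadvl. A match is a description of these letters and shows no binding.

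The libraries held between 23825110 and 28734303 reads assigned to genes. Hif1a, the target of the siRNA, stood at 13.1 ± 1.4 CPM (the gene's reads scaled to the TMM-adjusted size of the library) in Hif1a_siRNA_Dox cells and 142 ± 8.9 CPM in Dox cells, and at 17.2 ± 1.6 CPM in Hif1a_siRNA cells, 274 ± 14 CPM in NC_siRNA cells and 217 ± 13 CPM in Control cells (SD, n = 3 each). Arnt, the constitutive partner of Hif1a in HIF-1, was at 12.3 ± 0.12 CPM in Hif1a_siRNA_Dox and 9.19 ± 0.87 CPM in Dox cells, against 184 ± 4.1, 199 ± 4.8 and 205 ± 12 CPM in Hif1a_siRNA, NC_siRNA and Control cells. All 7 melanocytic markers were measured, and their summed level was 29700 to 36500 CPM in Hif1a_siRNA_Dox, 39700 to 46300 CPM in Dox, 9000 to 9410 CPM in Hif1a_siRNA, 8290 to 8960 CPM in NC_siRNA and 13400 to 14600 CPM in Control. They did not move as 1, since 5 were higher and 2 lower in Dox than in Control, with Sox10 at 25.4 to 30.1 CPM in Dox and 192 to 206 CPM in Control and Tyr at 55.4 to 62.0 CPM in Dox and 72.2 to 82.5 CPM in Control, and 4 were higher and 3, Mitf, Sox10 and Tyr, lower in Hif1a_siRNA_Dox than in Hif1a_siRNA. Col1a1 and Pdgfra were the only 2 of 5 fibroblast markers among the genes tested, and their sum was 61.8 to 85.7 CPM in Hif1a_siRNA_Dox and 37.2 to 60.7 CPM in Dox, against 6.22 to 6.62 CPM in Control. Of 4 immune markers only Cd68 was among the genes tested, at 5.46 to 9.5 CPM in Hif1a_siRNA_Dox, 4.03 to 6.09 CPM in Dox, 7.22 to 7.71 CPM in Hif1a_siRNA, 12.8 to 17.6 CPM in NC_siRNA and 18.9 to 30.1 CPM in Control, and no epithelial, adipocyte or hepatocyte marker was. Reads of the 15 mitochondrially encoded genes listed made up 4.62% of the total in Hif1a_siRNA_Dox, 3.77% in Dox, 1.91% in Hif1a_siRNA, 1.88% in NC_siRNA and 1.43% in Control on average. These shares moved with doxorubicin, as do the results below, and their part in those results was not tested. In such bulk libraries fewer cells of a type and less RNA per cell cannot be told apart, and CPM values give each gene's share of the measured RNA rather than its amount per cell.

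**Figure D1:**
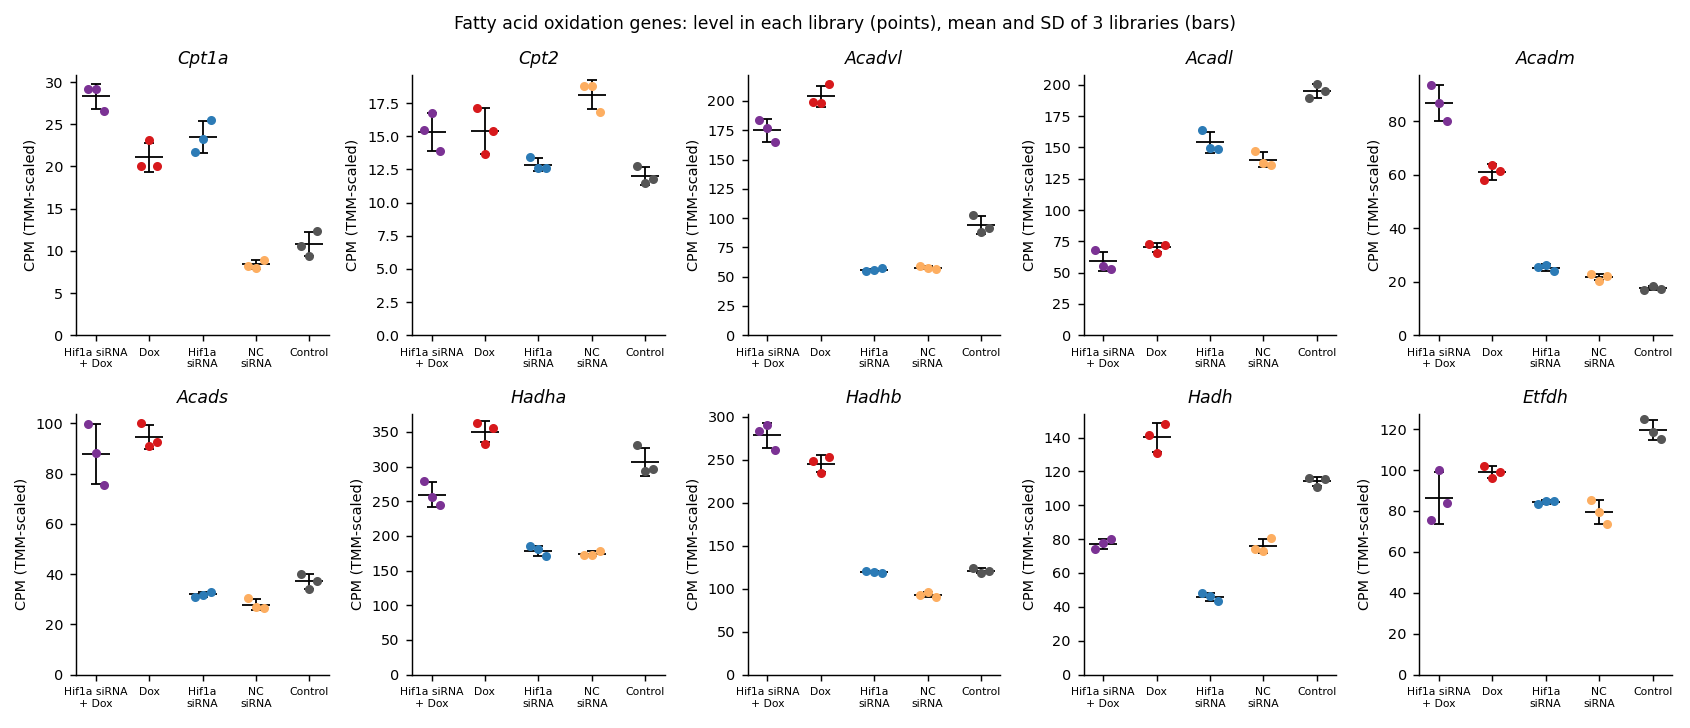
Level of each of the 10 genes in CPM (vertical axes, starting at 0) in the 15 libraries, with the 5 groups along the horizontal axis, points for single libraries, and bars for the mean and SD of 3. Acadl is low in both doxorubicin groups, at most 72.5 CPM against at least 136 CPM elsewhere, and Acadm, Acads and Acadvl are high in them.

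The carnitine palmitoyltransferases were the least abundant members per length of transcript in all 5 groups. Cpt1a was at 29.1, 29.2 and 26.6 CPM in Hif1a_siRNA_Dox and at 20.01, 23.1 and 20.1 CPM in Dox. It was at 21.7, 23.3 and 25.5 CPM in Hif1a_siRNA, 8.24, 7.99 and 8.96 CPM in NC_siRNA, and 10.6, 9.44 and 12.3 CPM in Control. All 9 libraries given the Hif1a siRNA or doxorubicin lay above the 6 given neither. Cpt2 covered a smaller range. It was at 15.5, 16.7 and 13.9 CPM in Hif1a_siRNA_Dox and 17.2, 13.7 and 15.4 CPM in Dox, and at 13.4, 12.6 and 12.6 CPM in Hif1a_siRNA, 18.8, 18.8 and 16.9 CPM in NC_siRNA and 12.8, 11.5 and 11.8 CPM in Control. The NC_siRNA libraries held the upper values of Cpt2, though the lowest of them overlapped the highest of Dox, and the Control libraries the lower ones.

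Among the acyl-CoA dehydrogenases, Acadm had the largest ratio of its highest to its lowest library. It was at 93.6, 86.9 and 80.2 CPM in Hif1a_siRNA_Dox and 57.9, 63.6 and 61.4 CPM in Dox, and at 25.4, 26.4 and 24.1 CPM in Hif1a_siRNA, 22.9, 20.4 and 22.1 CPM in NC_siRNA and 17.1, 18.5 and 17.2 CPM in Control. No 2 of the 5 groups overlapped for Acadm. Acadl, which prefers longer chains, ran the other way. It was at 67.8, 55.7 and 53.3 CPM in Hif1a_siRNA_Dox and 72.5, 65.8 and 72.2 CPM in Dox, and at 163.8, 149 and 149 CPM in Hif1a_siRNA, 147, 138 and 136 CPM in NC_siRNA and 189.7, 201 and 195 CPM in Control. The 2 doxorubicin groups overlapped each other and lay below every library without the drug. The processed pseudogene Gm5131 has 93.5% identity to Acadm over 681 bases and is not among the counted genes. Acadm counts are therefore uncertain to the extent that reads could align to either place.

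Acadvl, which takes the longest chains, was at 184, 177 and 165 CPM in Hif1a_siRNA_Dox and 199, 198 and 215 CPM in Dox. Without doxorubicin it was at 55.2, 55.4 and 57.1 CPM in Hif1a_siRNA, 59.5, 57.1 and 56.8 CPM in NC_siRNA and 102, 88.4 and 91.5 CPM in Control, so that the 2 siRNA groups overlapped and lay below Control. Acads, which takes the shortest chains, was at 99.6, 88.4 and 75.6 CPM in Hif1a_siRNA_Dox, 100.1, 91.0 and 92.7 CPM in Dox, 31.0, 31.9 and 32.9 CPM in Hif1a_siRNA, 30.3, 26.9 and 26.3 CPM in NC_siRNA and 39.9, 34.1 and 37.4 CPM in Control. The 2 doxorubicin groups overlapped for Acads and lay above the other 9 libraries. Part of the Acadvl transcript, 256 bases, is shared with Dvl2 on the opposite strand, and the strand setting of the authors' counting is not given in the sources used here, so reads of the 2 genes may have been mixed there.

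The 2 subunits of the trifunctional protein differed in their pattern. Hadha, which carries the hydratase and dehydrogenase activities, was at 279, 256 and 244 CPM in Hif1a_siRNA_Dox and 363, 333 and 356 CPM in Dox. It was at 185, 181 and 171 CPM in Hif1a_siRNA, 173, 172 and 178 CPM in NC_siRNA and 331, 293 and 296 CPM in Control. Hadha was thus lower in Hif1a_siRNA_Dox than in Control, without overlap. Hadhb, which carries the thiolase activity, was at 283, 290.0 and 262 CPM in Hif1a_siRNA_Dox and 248, 234 and 253 CPM in Dox, and at 120.5, 119 and 118 CPM in Hif1a_siRNA, 92.8, 96.4 and 89.9 CPM in NC_siRNA and 124, 118 and 121 CPM in Control. Hadhb was highest in Hif1a_siRNA_Dox, and Hif1a_siRNA overlapped Control. The mouse genome holds 2 processed pseudogenes close to Hadhb, Gm13910 with 99.8% identity over 1428 bases and Gm9108 with 97.6% over 1426 bases. Neither has a row of its own in the tables, so Hadhb counts are uncertain to the extent that reads could align to either place.

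Hadh, the hydroxyacyl-CoA dehydrogenase for shorter chains, was at 74.3, 77.5 and 80.0 CPM in Hif1a_siRNA_Dox and 142, 131 and 148 CPM in Dox, and at 47.9, 46.4 and 43.5 CPM in Hif1a_siRNA, 74.0, 73.1 and 80.4 CPM in NC_siRNA and 116, 111 and 116 CPM in Control. Both knockdown groups lay below their counterparts for Hadh. Etfdh, the ubiquinone oxidoreductase, was at 75.5, 100.2 and 83.6 CPM in Hif1a_siRNA_Dox, 102, 96.1 and 99.1 CPM in Dox, 83.3, 84.6 and 85.0 CPM in Hif1a_siRNA, 85.5, 79.4 and 73.6 CPM in NC_siRNA and 125, 119 and 115 CPM in Control. The Control libraries lay above all the others for Etfdh, and the other 4 groups overlapped in part.

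In GENCODE M21 (GRCm38, the mm10 build), Hadha (chr5:30118304-30155162, minus strand) and Hadhb (chr5:30155248-30184593, plus strand) are neighbours, and Acads (chr5:115110299-115119346, minus strand) is on the same chromosome. Acadm (chr3:153922357-153944632), Hadh (chr3:131233419-131272101) and Etfdh (chr3:79603788-79629500) lie on the minus strand of chromosome 3. Cpt1a is at chr19:3322334-3385733 on the plus strand, and on the minus strand are Cpt2 at chr4:107903981-107923610, Acadvl at chr11:70010183-70015411 and Acadl at chr1:66830839-66863277. The counts are over whole genes and do not separate exons or isoforms. Acadl overlaps the processed pseudogene Gm15793 by 495 bp on the same strand, and that pseudogene has counts of its own.

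Levels of different genes were compared as CPM per kilobase of each gene's longest protein-coding transcript in GENCODE M21. Acadl led the members in Hif1a_siRNA cells (80.4 ± 4.4 CPM per kb), NC_siRNA cells (73.2 ± 3.1) and Control cells (102 ± 2.9; SD, n = 3 each). In both doxorubicin groups Hadhb led, at 136 ± 7.3 CPM per kb in Hif1a_siRNA_Dox and 120 ± 4.8 CPM per kb in Dox (SD, n = 3 each). Acadl stood eighth in Hif1a_siRNA_Dox, at 30.8 ± 4.1 CPM per kb, and seventh in Dox, at 36.6 ± 2.0 CPM per kb. In Dox and in Control no 2 neighbours in this order overlapped. In Hif1a_siRNA_Dox the levels of Acads, Hadh, Acadm, Etfdh and Acadl each overlapped the next in that order, as did those of Cpt1a and Cpt2. In Hif1a_siRNA the overlaps were between Acadvl and Hadh and between Cpt1a and Cpt2, and in NC_siRNA between Hadhb and Hadha and between Hadha and Hadh.

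Doxorubicin without siRNA raised 8 members and lowered 2, so that Acadm, Acads, Acadvl and Hadhb were at least 2-fold higher in Dox than in Control by the ratio of mean CPM, while Acadl was at 0.36 of its Control level. Background calling was high in this comparison, since 83.8% of all genes tested passed an adjusted p of 0.05 (edgeR quasi-likelihood test with Benjamini-Hochberg adjustment), 43.9% higher and 39.8% lower, so all 10 members being called is close to what other genes did. The median log2 fold change was 0.66 over the members and 0.10 over all genes. Of the dehydrogenases Acadl alone fell, with Acadm at 1.79 ± 0.09 (SE; adjusted p = 2.6e-15), Acads at 1.35 ± 0.09 (3.0e-12), Acadvl at 1.12 ± 0.07 (3.5e-13) and Acadl at -1.48 ± 0.08 (3.2e-14). Cpt1a rose by 0.96 ± 0.11 (4.7e-08) and Hadhb by 1.02 ± 0.06 (2.0e-13). The smaller changes were 0.36 ± 0.12 in Cpt2 (adjusted p = 0.0066), 0.30 ± 0.07 in Hadh (0.00044), 0.19 ± 0.07 in Hadha (0.0094) and -0.27 ± 0.08 in Etfdh (0.0045). Hadha missed the threshold with size factors from relative log expression or with DESeq2 (0.13, adjusted p = 0.096), with only Dox and Control fitted (0.13, 0.080), and most when all genes listed for those 2 groups entered that fit (0.09, 0.22). Cpt2 missed it in the last of these (0.25, 0.078), and Etfdh with upper-quartile scaling (-0.15, 0.10).

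**Figure D2:**
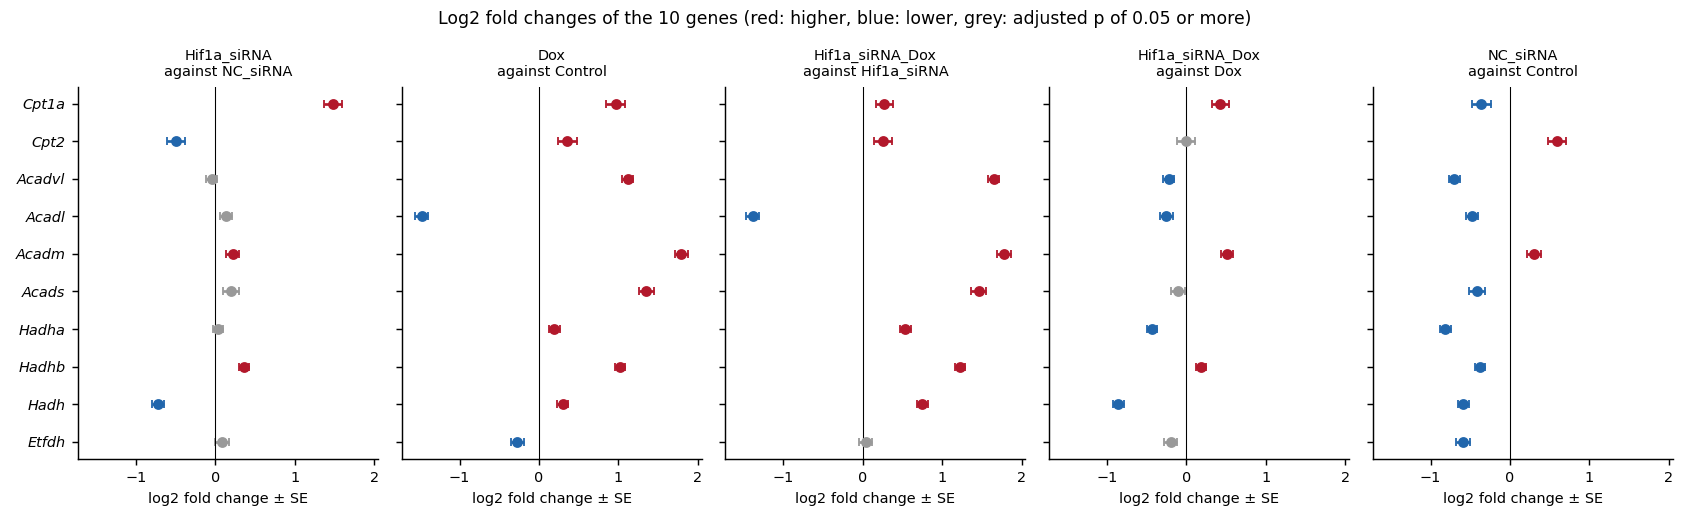
Log2 fold change with its standard error (horizontal axes) of the 10 genes (rows) in 5 comparisons, 1 panel each, from edgeR with 3 libraries a group. Acadl lies far to the lower side in both doxorubicin panels, at -1.48 in Dox against Control and -1.39 in Hif1a_siRNA_Dox against Hif1a_siRNA.

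Doxorubicin after Hif1a knockdown gave 8 members higher, 1 lower and 1 not called in Hif1a_siRNA_Dox against Hif1a_siRNA. Any gap between these groups in time since lipoplex addition was not separated from the drug. Of all genes tested, 84.2% were called, 42.6% higher and 41.6% lower, and the median log2 fold change was 0.64 over the members and 0.04 over all genes. Acadm rose by 1.78 ± 0.08 on the log2 scale (SE; adjusted p = 1.4e-15) and Acadl fell by 1.39 ± 0.08 (1.1e-13 by edgeR). Acadvl rose by 1.65 ± 0.07 (3.3e-16), Acads by 1.46 ± 0.09 (6.1e-13) and Hadhb by 1.22 ± 0.06 (6.8e-15). Hadh and Hadha changed by 0.75 ± 0.07 (9.2e-10) and 0.54 ± 0.07 (7.4e-08). Cpt1a, at 0.27 ± 0.11 (0.022), and Cpt2, at 0.26 ± 0.11 (0.037), both lost their calls without library 1 or 2 of either group. Cpt1a was then at its lowest, 0.16, without Hif1a_siRNA library 1, and Cpt2, at 0.14, without Hif1a_siRNA_Dox library 2, and the call of Cpt2 was also lost without Hif1a_siRNA library 3 (0.19). Etfdh was at 0.04 ± 0.08 (adjusted p = 0.69), and was called higher with upper-quartile scaling (0.18, 0.044).

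Knockdown of Hif1a without doxorubicin changed both carnitine palmitoyltransferases, Acadm, Hadhb and Hadh. Cpt1a was 2.8-fold higher in Hif1a_siRNA than in NC_siRNA by the ratio of mean CPM, Cpt2 and Hadh were lower, Hadhb was higher, and of the dehydrogenases only Acadm passed the threshold. Of the members, 3 were called higher, 2 lower and 5 not, and of all genes 67.7% were called, 36.4% higher and 31.2% lower. The median log2 fold change was 0.11 over the members and 0.06 over all genes. Cpt1a rose by 1.48 ± 0.11 (SE; adjusted p = 6.6e-11), Hadhb by 0.36 ± 0.06 (2.0e-05) and Acadm by 0.22 ± 0.08 (0.027). Hadh fell by 0.72 ± 0.07 (4.6e-09 by edgeR) and Cpt2 by 0.50 ± 0.11 (0.00041). Acadm lost its call with size factors from relative log expression (0.17, adjusted p = 0.094) and without any of NC_siRNA library 2, Hif1a_siRNA library 1 or Hif1a_siRNA library 2 (adjusted p from 0.068 to 0.14). The values that did not pass were 0.20 in Acads (adjusted p = 0.071), 0.14 in Acadl (0.13), 0.08 in Etfdh (0.39), 0.03 in Hadha (0.67) and -0.05 in Acadvl (0.56). Acads was called higher without NC_siRNA library 1 (0.26, adjusted p = 0.035).

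Under doxorubicin, Cpt1a, Acadm and Hadhb were higher and Hadh, Hadha, Acadl and Acadvl lower in Hif1a_siRNA_Dox than in Dox. That made 3 higher and 4 lower, with 3 not called. Knockdown and transfection cannot be told apart in this comparison. Of all genes 42.2% were called, 21.5% higher and 20.8% lower, and the median log2 fold change was -0.15 over the members and 0.01 over all genes. Hadh fell by 0.86 ± 0.07 on the log2 scale (SE; adjusted p = 2.2e-09) and Hadha by 0.43 ± 0.07 (1.7e-05 by edgeR). Acadm rose by 0.51 ± 0.08 (2.2e-05) and Cpt1a by 0.43 ± 0.11 (0.0030). Those 4 calls held under every alternative tried, and the calls of Hadhb at 0.18 (0.019), Acadvl at -0.22 (0.012) and Acadl at -0.25 (0.016) each failed under at least 1. Hadhb lost its call without Dox library 2 or Hif1a_siRNA_Dox library 2, Acadvl without library 3 of either group, and Acadl without Dox library 1 or 3 or Hif1a_siRNA_Dox library 2 or 3. Cpt2 at -0.002 (adjusted p = 0.99), Acads at -0.11 (0.36) and Etfdh at -0.19 (0.067) were not called, and Etfdh was called lower with upper-quartile scaling (-0.24, 0.027) and without Hif1a_siRNA_Dox library 2 (-0.33, 0.0020). Hadh was lower and Cpt1a higher in both comparisons of knockdown cells, and these 2 comparisons share no library. Only Hif1a_siRNA against NC_siRNA had transfected cells on both sides. In NC_siRNA cells Hadh was at 0.665 and Cpt1a at 0.777 of the Control level by the ratio of mean CPM.

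Cells given the negative-control siRNA had 8 members lower and 2 higher in NC_siRNA against Control. No culture time is given for Control, so a possible gap in time cannot be told apart from transfection here. All 10 members were called, where 66.8% of all genes were, 33.1% higher and 33.7% lower. The median log2 fold change was -0.45 over the members and -0.01 over all genes. Hadha fell by 0.81 ± 0.07 (SE; adjusted p = 4.1e-10), Acadvl by 0.70 ± 0.07 (9.5e-09), and Hadh and Etfdh by 0.59 ± 0.07 (1.4e-07) and 0.59 ± 0.08 (2.0e-06 by edgeR). Acadl, Acads and Hadhb were at -0.48, -0.41 and -0.38, and Cpt1a at -0.36 ± 0.12 (0.011). Cpt2 rose by 0.60 ± 0.11 (8.3e-05) and Acadm by 0.31 ± 0.09 (0.0037). The call of Cpt1a was lost without Control library 3 (-0.26, adjusted p = 0.086) and at a threshold of 0.01, and the other 9 held under every alternative tried.

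The effect of doxorubicin in knockdown cells minus its effect in untransfected cells was called for 6 members, 5 of them higher and 1 lower, where 58.6% of all genes were called, 26.3% higher and 32.3% lower. The median difference was 0.16 over the members and -0.06 over all genes. The rise of Cpt1a was smaller after knockdown, with a difference of -0.69 ± 0.16 on the log2 scale (SE; adjusted p = 0.00060). The effect was more positive after knockdown in Acadvl (0.53 ± 0.10, 6.6e-05), Hadh (0.45 ± 0.10, 0.00045), Hadha (0.34 ± 0.09, 0.0029), Etfdh (0.31 ± 0.12, 0.029) and Hadhb (0.20 ± 0.09, 0.048). The calls of Hadhb and Etfdh were also lost when any 1 Hif1a_siRNA library, Control library 1, Dox library 2 or Hif1a_siRNA_Dox library 2 was left out, with values down to 0.16 and 0.18. Acadm (-0.01 ± 0.12, adjusted p = 0.94), Acadl (0.09 ± 0.11, 0.51), Acads (0.11 ± 0.13, 0.48) and Cpt2 (-0.10 ± 0.16, 0.61) were not called. Each doxorubicin effect was taken within transfected or within untransfected cells, so a transfection effect that adds to both on the log2 scale cancels, while one that differs with doxorubicin cannot be told apart from the knockdown. A transfection effect that changes with time would not cancel if the transfected groups were harvested at unequal times. With NC_siRNA in the place of Control, the difference gains the NC_siRNA against Control change by construction, so its values show that change again. Cpt1a was then lower (-1.06, adjusted p = 4.5e-06) and the other 9 had the opposite sign, with Hadha at -0.47 (0.00017), Acadl at -0.39 (0.0052) and Etfdh at -0.28 (0.049) called lower and Cpt2 at 0.49 (0.010) and Acadm at 0.30 (0.032) called higher.

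**Figure D3:**
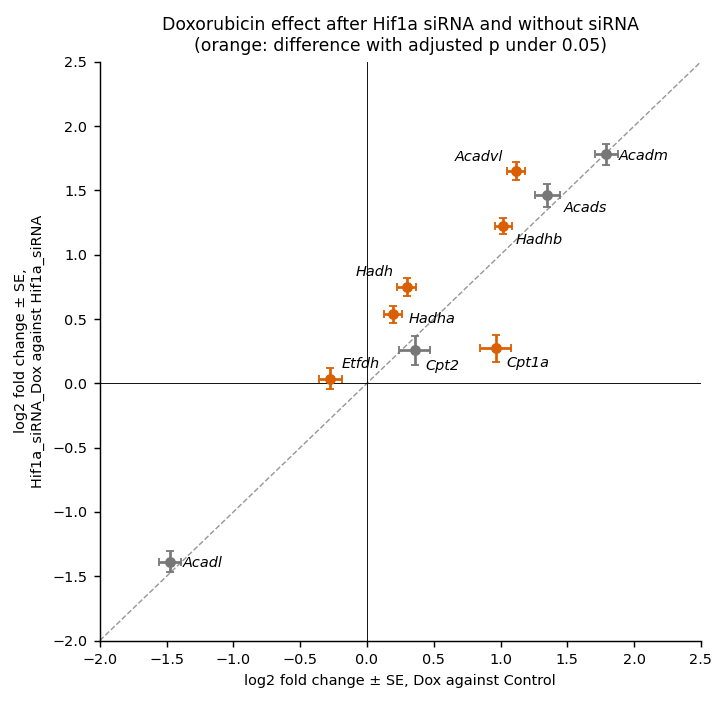
Log2 fold change with doxorubicin after Hif1a siRNA (vertical axis, Hif1a_siRNA_Dox against Hif1a_siRNA) and without siRNA (horizontal axis, Dox against Control) for the 10 genes, with standard errors and the line of equal effects. Acadm and Acadl lie on the line at opposite ends, and Cpt1a lies below it.

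Ratios of reads within a library, which do not depend on the scaling between libraries, showed the unequal changes directly. The pairs were chosen after their values were seen and are given as a description. The ratio of Hadhb to Hadha reads was 1.07 ± 0.060 in Hif1a_siRNA_Dox, 0.70 ± 0.014 in Dox, 0.667 ± 0.021 in Hif1a_siRNA, 0.533 ± 0.028 in NC_siRNA and 0.395 ± 0.018 in Control (SD, n = 3 each). Hif1a_siRNA_Dox lay above all the other groups and Control below them. The ratio of Acadl to Acadm reads was 0.677 ± 0.044 in Hif1a_siRNA_Dox and 1.15 ± 0.11 in Dox, against 6.09 ± 0.41 in Hif1a_siRNA, 6.44 ± 0.29 in NC_siRNA and 11.1 ± 0.24 in Control (SD, n = 3 each). The ratio of Cpt1a to Cpt2 reads was 1.85 ± 0.090 in Hif1a_siRNA_Dox, 1.39 ± 0.27 in Dox, 1.83 ± 0.20 in Hif1a_siRNA, 0.465 ± 0.058 in NC_siRNA and 0.90 ± 0.12 in Control (SD, n = 3 each). Cpt2 reads outnumbered Cpt1a reads in all 3 NC_siRNA libraries and in 2 of the 3 Control libraries.

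**Figure D4:**
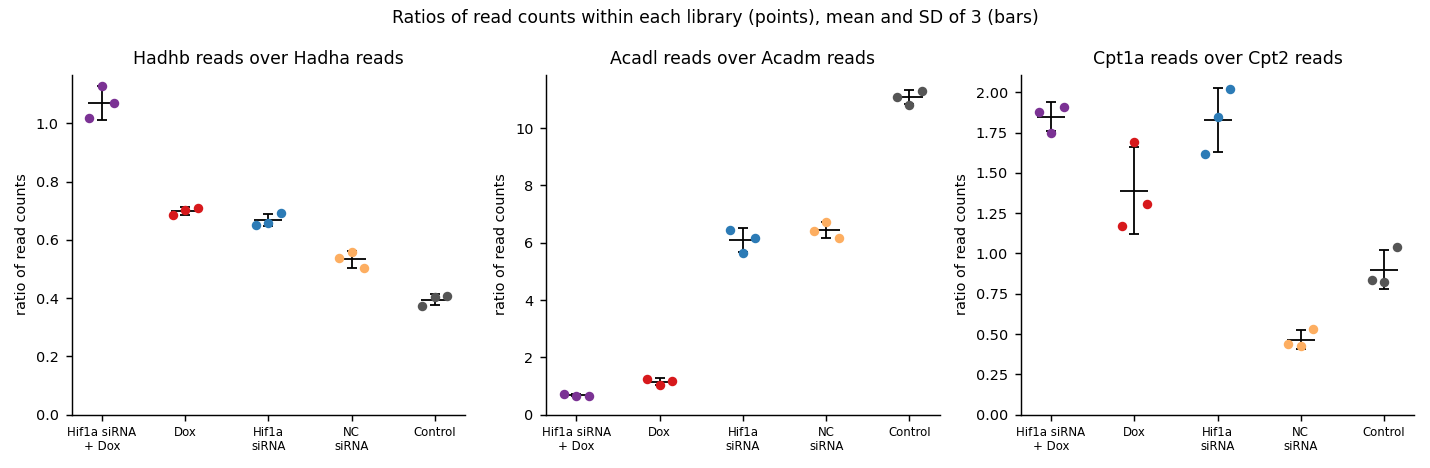
Ratio of the reads of 2 genes within each library (vertical axes, starting at 0) in the 5 groups (horizontal axis), with points for libraries and bars for the mean and SD of 3. The Hadhb to Hadha ratio runs between 0.395 in Control and 1.07 in Hif1a_siRNA_Dox, and the Acadl to Acadm ratio between 11.1 and 0.677.

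The other genes of fatty acid oxidation were counted from 7 lists. Under doxorubicin alone, 14 of 20 genes listed as other beta-oxidation enzymes were higher in Dox than in Control and 4 lower. Of all genes 43.9% were higher and 39.8% lower, the shares to set beside every count in this comparison. The list held Acad8, an isobutyryl-CoA dehydrogenase of valine breakdown, at 2.99 and Acad10 at 1.96. In the carnitine shuttle 4 of 5 genes were higher and 1 lower, led by the carnitine acetyltransferase Crat at 1.97 and the carnitine importer Slc22a5 at 1.84. Of 7 genes of acyl-CoA activation 4 were higher and 3 lower, and the 2 with the smallest p, the long-chain synthetases Acsl3 and Acsl4, were at -2.29 and -1.83. In electron transfer 3 of 6 were higher and 2 lower, with the ubiquinone-binding protein Coq10b at 3.22 and the flavoprotein subunit Etfb at 0.55. Among 8 genes that set malonyl-CoA, the inhibitor of Cpt1a, 4 were higher and 4 lower, with the AMPK subunits Prkaa1 at -2.34 and Prkab1 at 1.32. Of 13 regulators 6 were higher and 6 lower, and of 14 peroxisomal genes 9 were higher and 3 lower. Among the regulators the coactivator Ppargc1a was at -2.59 and the nuclear receptor Nr2f2 at -2.04, and among the peroxisomal genes the transporter Abcd3 was at -3.11 and the thioesterase Acot8 at 1.82. All of these passed the test, as did all named below.

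In Hif1a_siRNA_Dox against Hif1a_siRNA, 13 of the 20 other beta-oxidation enzymes were higher and 5 lower. Of all genes 42.6% were higher and 41.6% lower. There Crat was at 2.62, the peroxisomal thiolase gene Scp2 at 1.79, and Ppargc1a at -3.87. Knockdown without the drug raised 9 of the 20 and lowered 5 in Hif1a_siRNA against NC_siRNA, near the 36.4% of all genes higher and 31.2% lower. The thioesterase Acot2 was at 1.17, Acad11 at -0.83, the carnitine octanoyltransferase Crot at 1.58 and the peroxisomal acyl-CoA oxidase Acox3 at -1.47. Under doxorubicin, none of the 20 were higher and 11 lower in Hif1a_siRNA_Dox against Dox, where 21.5% of all genes were higher and 20.8% lower. Knockdown and transfection cannot be told apart in this comparison. The enoyl-CoA hydratase Echs1 was at -0.92 and the enoyl-CoA isomerase Eci1 at -0.59. There the carnitine-acylcarnitine carrier Slc25a20 was at -0.66, the flavoprotein subunit Etfa at -0.40, and Acaca, the cytosolic acetyl-CoA carboxylase that makes malonyl-CoA, at 0.51. In NC_siRNA against Control 1 of the 20 was higher and 12 lower, where 33.1% of all genes were higher and 33.7% lower. Eci1 was at -0.84, the thiolase Acaa2 at -0.86, Etfa at -0.82 and Etfb at -0.75 there. The medians of the 20 were 0.54 in Dox against Control, 0.59 in Hif1a_siRNA_Dox against Hif1a_siRNA, -0.23 in Hif1a_siRNA_Dox against Dox, 0.07 in Hif1a_siRNA against NC_siRNA and -0.44 in NC_siRNA against Control, beside all-gene medians of 0.10, 0.04, 0.01, 0.06 and -0.01. Ppara and Pparg, nuclear receptors known to drive these genes in other tissues, and the muscle-type Cpt1b were not among the genes tested.

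**Figure D5:**
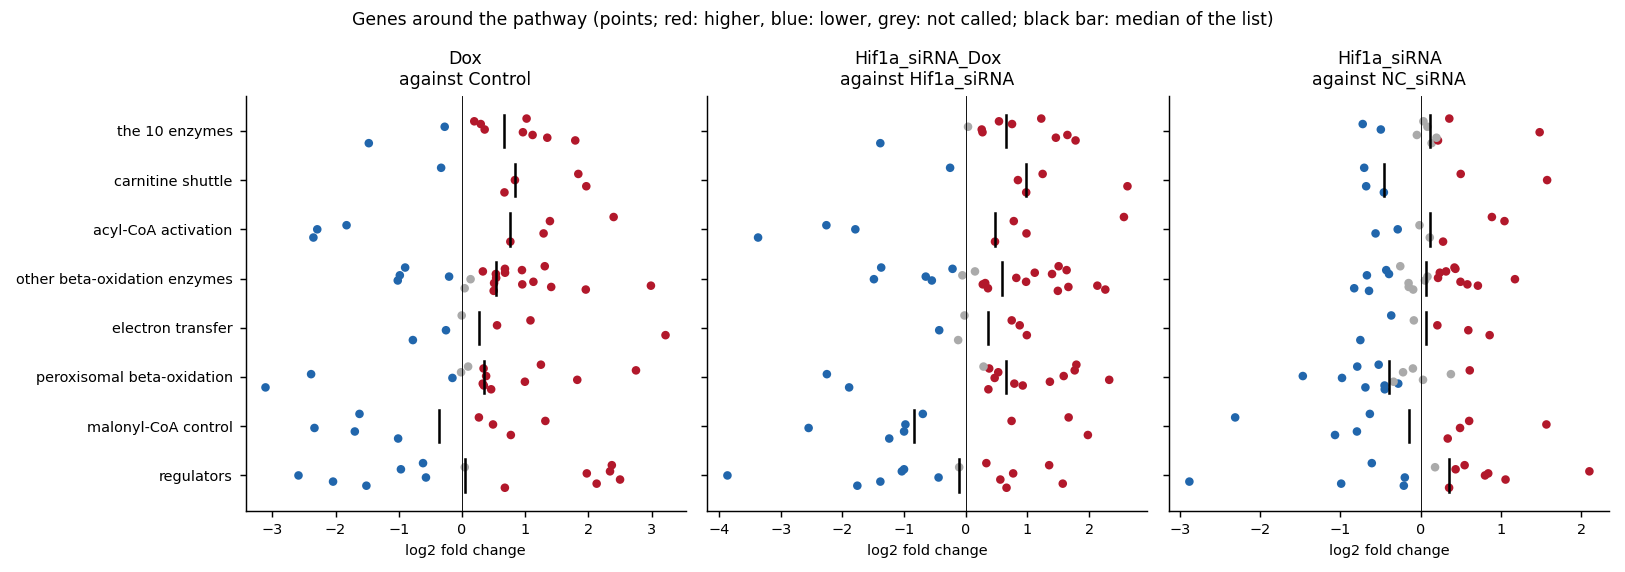
Log2 fold change (horizontal axes, edgeR) of the members and of the genes in each list of fatty acid oxidation genes (rows). Points are genes, called higher (red), called lower (blue) or not called (grey) at adjusted p under 0.05, and black bars are medians. The panels show Dox against Control, Hif1a_siRNA_Dox against Hif1a_siRNA, and Hif1a_siRNA against NC_siRNA. The median of the other beta-oxidation enzymes is 0.54, 0.59 and 0.07 in these panels, in that order.

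The members differed in which other member they resembled most. The measure was the root mean square difference of log2 CPM over the 5 group means after each gene's own mean was removed, so 0 would be the same pattern. Acads and Hadhb were the closest pair, at 0.17 log2 units, and Acadvl was 0.172 from Acads. Acadl was the farthest from any other, with Etfdh nearest at 0.649. Other genes were searched among 10568 whose highest group mean reached 5 CPM, with clone and prediction names left out. Of these, the 2 closest to Acadl were Itfg2 at 0.0345 and Heg1 at 0.0389. Those closest to Acadm were Bcl2l12 at 0.0782 and Klhl22 at 0.0808. Mcur1 at 0.0525 and Crtc1 at 0.0805 were closest to Cpt1a, and the ribosomal protein genes Rpl35a at 0.0354 and Rpl27 at 0.0522 to Hadha. Hadhb had Gtf2f1 at 0.0596 and Magoh at 0.066, and Hadh had no gene of those searched nearer than Arpc3 at 0.102. Over 5 group means, close matches are found for most genes among so many, and the measure is given as a description.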

How the data were processed

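Whole transcripts were sequenced in 15 libraries of B16.F10 cells, 3 in each of 5 groups. The libraries were made with a stranded poly(A) kit per the labels' protocols. Per the submitters' processing notes, reads were handled with StringTie 2.1.3b, HISAT2 2.1.0, Trimmomatic 0.38, FastQC 0.11.7 and Bowtie2 2.3.4.1 on the mm10 build. The deposited values are raw read counts per gene, not normalized by the authors. Which annotation and strand setting gave them is not given in the sources used here. The authors' tables list between 12819 and 13172 genes per group, and the 12721 listed for all 5 were used. The tables give no symbol for some genes, and 1491 symbols were taken from RefSeq by gene ID.

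From the counts, log2 fold changes were fitted with edgeR 4.0.16 in R 4.3.3 (TMM scaling, robust quasi-likelihood F test, 1 group term over all 15 libraries, 10 residual degrees of freedom). P-values were adjusted by Benjamini-Hochberg over all 12721 genes, with a threshold of 0.05. A filter at a count of 10 removed 0 genes. The standard error is the log2 fold change divided by the square root of F. Levels are CPM on TMM-scaled library sizes. The fit was run on simulated counts with 200 of 12721 genes changed. That is a far smaller share than was called in these data, so the run does not show how the fit performs here. Libraries held 23825110 to 28734303 reads, and the standard errors cover counting error and the spread between libraries together. Replicate pairs differed by more than sampling noise in every group (chi-square per degree of freedom 3.56 to 34.5). The pairs of Hif1a_siRNA_Dox were at 25.0 to 34.5 and those of the other groups at 3.56 to 16.7. The groups shared 1 estimate of the spread, so standard errors of comparisons with Hif1a_siRNA_Dox may be too small. No sign of pairing by replicate number was seen, since none of 30 same-number pairs of deviations correlated above 0.1. The labels do not say whether a number marks a shared culture or day. Alternatives were DESeq2 1.42.0, limma-voom (limma 3.58.1), other scalings, filters and thresholds, narrower fits, a replicate block and leaving out each library. From each list the 2 called genes with the smallest p were named in each comparison, and the text gives a part of them. The members and lists were chosen with earlier results of these data known.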

Additional observations from a re-analysis of the deposited data

Results flagged for a closer look

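The change with doxorubicin differed between knockdown and untransfected cells for 6 of the 10 genes. The test was that of the difference itself (edgeR quasi-likelihood test, adjusted p under 0.05, 3 libraries a group). Of all genes 58.6% were called, so 6 calls among 10 genes are close to what other genes did. Each value is the log2 change of Hif1a_siRNA_Dox against Hif1a_siRNA minus that of Dox against Control. It was -0.69 in Cpt1a, 0.53 in Acadvl, 0.45 in Hadh, 0.34 in Hadha, 0.31 in Etfdh and 0.20 in Hadhb. The calls of Etfdh and Hadhb were lost when single libraries were left out, and the other 4 held under every alternative tried that kept Control. With NC_siRNA in place of Control, Acadvl, Hadh, Hadha, Etfdh and Hadhb turned sign and Cpt1a did not. That swap adds the NC_siRNA against Control change by construction.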

How the results depend on the processing

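Of the members' log2 changes, 926 of 1030 values under an alternative kept direction and side of the threshold, 66 lost a call, 5 gained one and 33 turned sign. For most of what follows the cause was not tested. With NC_siRNA in place of Control, which by construction adds the NC_siRNA against Control change, the difference of the doxorubicin effects had 2 members higher and 4 lower. Cpt2 was then at 0.49, Acadvl at -0.17, Acadl at -0.39, Acadm at 0.30, Acads at -0.30, Hadha at -0.47, Hadhb at -0.17, Hadh at -0.14 and Etfdh at -0.28. Small values that turned sign were Hadha in Hif1a_siRNA against NC_siRNA (-0.0115 with relative log expression factors or DESeq2, -0.0166 and -0.0165 in the narrower fits), Cpt2 in Hif1a_siRNA_Dox against Dox (0.0464, 0.0471 with DESeq2, 0.0067 with limma-voom, 0.0038 and 0.0031 in the narrower fits) and Acadm in the difference (0.0689 with relative log expression factors or DESeq2, 0.0109 with upper-quartile scaling). Members called lower in Dox against Control numbered 1 with upper-quartile scaling, and in Hif1a_siRNA_Dox against Dox 2 with relative log expression factors or at a threshold of 0.01. Members higher in the difference numbered 3 at that threshold. Leaving out 1 library gave 2 to 4 members lower in Hif1a_siRNA_Dox against Dox, with 2 without Dox library 3 or Hif1a_siRNA_Dox library 3, and 3 to 5 higher in the difference, with 3 without Control library 1, Dox library 2, Hif1a_siRNA_Dox library 2 or any Hif1a_siRNA library. It also gave ranges of -0.0824 to 0.0832 for Cpt2 in Hif1a_siRNA_Dox against Dox, -0.14 to 0.13 for Etfdh in Hif1a_siRNA_Dox against Hif1a_siRNA, and -0.0242 to 0.156 for Acadl and -0.0686 to 0.0419 for Acadm in the difference.

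The replicate block was run although no sign of pairing by number was seen (correlations of same-number deviations between -0.162 and 0.0872). It added a call for Acads in Hif1a_siRNA against NC_siRNA (0.20, adjusted p = 0.048 by edgeR) and lost that of Hadhb in the difference (0.20, 0.057). The all-gene median log2 change shifted by 0.126 in Dox against Control with upper-quartile scaling, and by 0.149 in Hif1a_siRNA_Dox against Hif1a_siRNA. Unscaled library totals moved 28 of 50 group levels by more than 1 SD, by factors of 0.871 to 1.19. Counts of all genes called stayed within 1.5 times of the main ones. Each member had 214 to 8928 reads per library, and counting error weighs most on Cpt1a and Cpt2, which had the fewest.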
